A study of Mus musculus with 12 samples.

Results

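The transcripts described here are those of 44 genes of the lysosome: 10 cysteine proteases, 3 other proteases, 7 glycosidases, 8 lipid hydrolases and cofactors, 7 genes of the lysosomal membrane and progranulin, 3 transcription factors and 6 genes of the proton pump. They were taken by gene name from a table of 30199 mouse genes, all 44 names were found, and all 44 were among the 18897 genes that passed a filter on low counts. The hearts came from C57BL/6J mice in 4 groups of 3 libraries each: controls (labelled ctrl, with no word on a vehicle), hearts labelled PLX3397, hearts labelled sorafenib, and hearts labelled with both agents. Hearts were taken after 28 days of sorafenib administration, with or without an agent meant to clear macrophages. Sorafenib blocks several kinases and is given against tumours, and PLX3397 inhibits CSF1R, the receptor on which tissue macrophages depend. The labels give no dose, sex, age or route, do not say which parts of the heart were taken, and leave unsaid whether libraries are single animals, so p-values measure only the spread between these samples.

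The lysosome is the acidic compartment in which cells break down proteins, glycans and lipids taken up from outside or delivered by autophagy. Its hydrolases work at low pH, which a proton pump, the V-ATPase, maintains. TFEB, TFE3 and MITF are related transcription factors that bind an E-box-like element in the promoters of many lysosomal genes. Every cell type of the heart has lysosomes, but macrophages, which digest what they engulf, carry more of some enzymes than cardiomyocytes do. From textbook knowledge, Ctss, Ctsc, Ctsh, Ctsz, Lgmn, Grn and Lipa were taken as macrophage-enriched. The other 37 members were grouped as broadly expressed, a name that is loose for Ctsk and Mitf, as described below.

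Library totals were 61626404 to 64537365 estimated counts, of which the 44 genes held 0.488 to 0.609 %. Levels are given as CPM, counts scaled to the size of the library with the TMM method (trimmed mean of M values, which corrects for library composition), or, where genes are compared with each other, as the deposited FPKM, which is also scaled for gene length. Differences are log2 fold changes ± SE with 3 libraries in each group, and a member is said to have risen or fallen where edgeR's quasi-likelihood test gave an adjusted p (over all 18897 genes) under 0.05. The labels were checked against 25 macrophage markers. Their mean log2 CPM relative to the controls stood at -0.08, -0.26 and -0.28 for PLX3397, at -1.41, -1.45 and -0.71 for sorafenib, and at -2.12, -1.71 and -1.69 where both agents were given. The libraries labelled PLX3397 alone held these markers near the control level, sorafenib replicate 3 held more of them than the other sorafenib libraries, and every direction below rests on the labels as given. In bulk tissue, fewer cells of a type and less RNA per cell cannot be told apart.

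In the controls the most abundant members per length were Ctsd, which encodes the aspartic protease cathepsin D, at 422 ± 29.4 FPKM (SD, n = 3), and Psap, the precursor of the saposins that present lipids to hydrolases, at 364 ± 30.7 FPKM. Laptm4a (197 ± 11.5 FPKM) and Lamp1 (156 ± 6.48 FPKM), both encoding lysosomal membrane proteins, and Ctsb, encoding the cysteine protease cathepsin B (74.5 ± 12.1 FPKM), followed. The lowest were Tfe3 (1.498 ± 0.186 FPKM) and Gla, which encodes alpha-galactosidase A (1.63 ± 0.458 FPKM). None of these 7 genes passed in any of the 6 comparisons made.

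More members passed against control in the hearts labelled with both agents than in either other group. There 9 members fell and 3 rose of 44, against 8.14% of all genes that fell and 7.97% that rose, so the members fell in a share of 20.5%. The genes that fell were Ctss, Ctsc, Ctsz, Ctsh, Ctsk, Hexa, Gusb, Npc2 and Atp6v1a, and those that rose were Mitf, Lamp2 and Scarb2. In all, 27.3% of the members and 16.1% of all genes passed. The count depends on single libraries: 5 members passed without control replicate 3, with 6.48% of all genes, and 5 without replicate 1 of both agents, with 6.61% of all genes. The members' median was -0.12, against -0.02 over all genes, and 32 of 44 were below 0 (72.7%, against 52.0%). In 17 members every library with both agents lay below every control (38.6%, against 19.0% of all genes), and in 3 every library lay above (against 16.6%). With sorafenib alone 1 of 44 passed, Ctsc, which is 2.27% against 2.65% of all genes (1.14% lower and 1.50% higher). At an unadjusted p under 0.05 there were 10 members (22.7%, against 21.7%), and 30 were below 0 (68.2%, against 51.8%). Every sorafenib library lay below every control in 7 members (15.9%, against 13.7%) and above in 3 (against 12.8%). The shares that passed, and those below every control, thus lay near those of all genes with sorafenib alone. Without sorafenib replicate 3, the library with more macrophage marker RNA, 4 members passed (Ctss, Ctsc, Ctsz and Hexa, all lower), and 2.43% of all genes did. The comparisons with control use the same 3 control libraries. The 44 genes are set side by side in the plot of log2 fold changes by role.

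**Figure D1:**
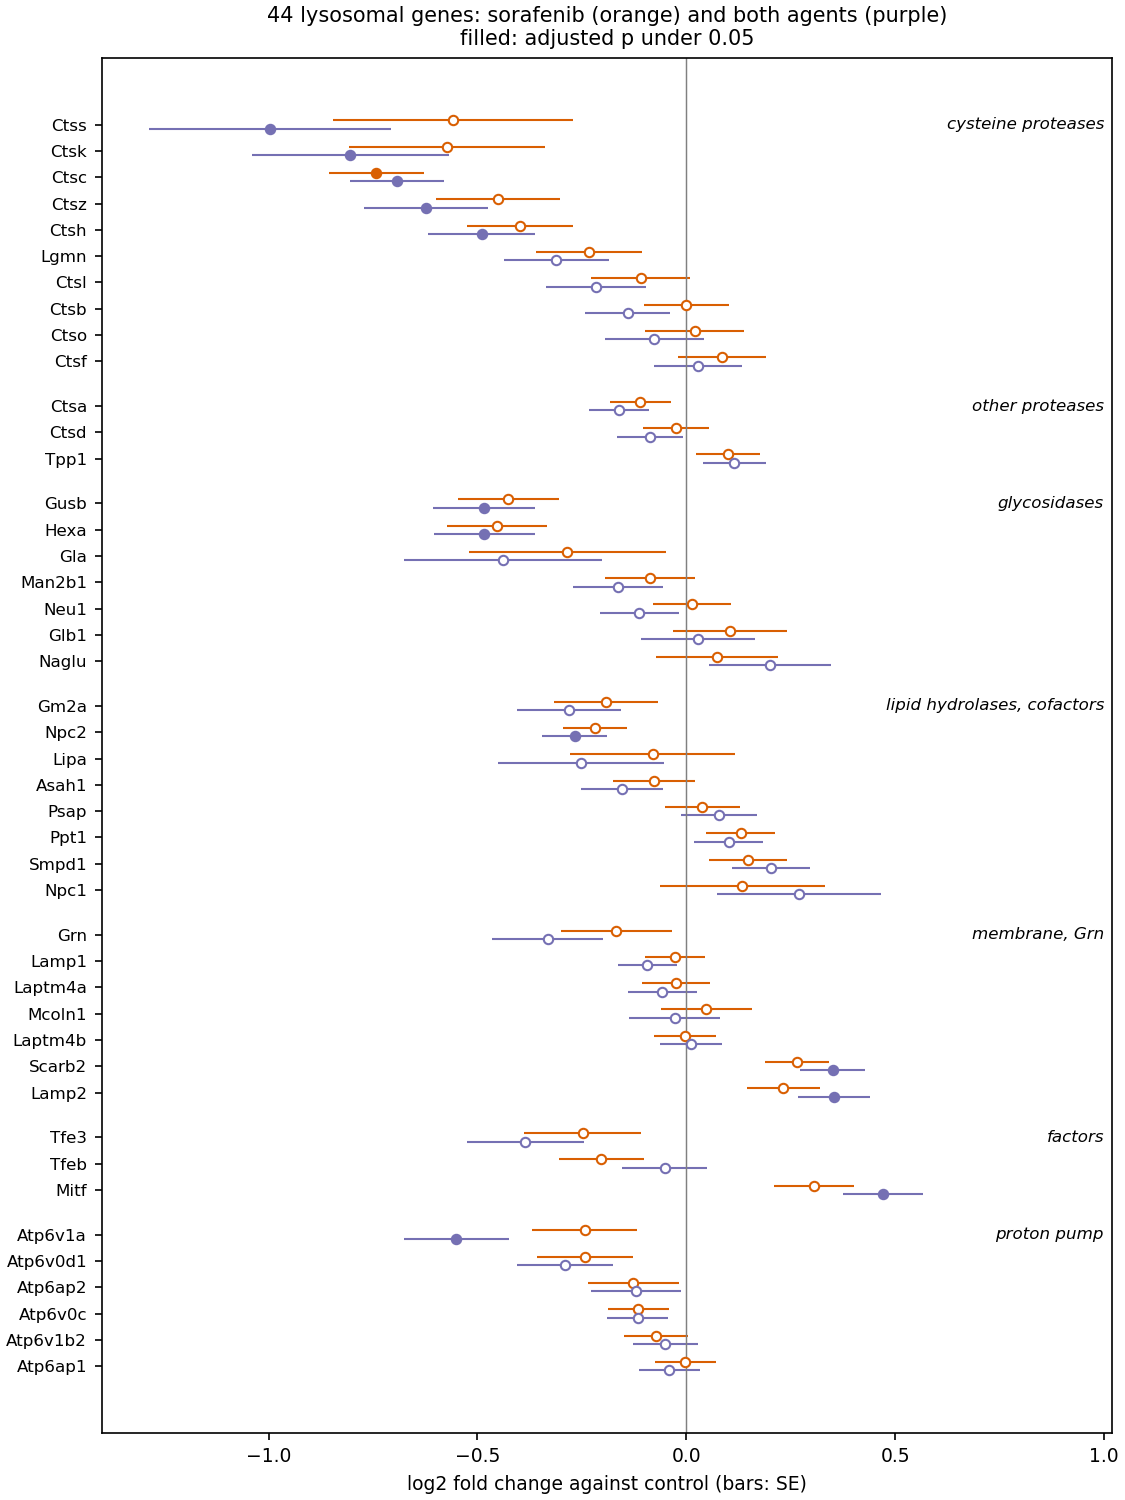
Log2 fold change against control of each of the 44 lysosomal genes, grouped by role, for sorafenib (orange) and both agents (purple), with the SE as bars and filled points for an adjusted p under 0.05. Ctss lies lowest with both agents, at -0.997, Mitf highest, at 0.47, and most genes lie near 0.

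Of the 10 cysteine protease genes, 5 fell with both agents (against 8.14% of all genes), 0 rose (against 7.97%), and 9 were below 0 (against 52.0%). The levels of the macrophage-enriched ones are given first. Ctss (chromosome 3, 95526786 to 95556403, + strand, mm10) encodes cathepsin S, which cleaves the invariant chain of MHC class II molecules in antigen-presenting cells. Its CPM was 41.0, 24.8 and 31.3 in the controls, 31.7, 24.9 and 29.8 with PLX3397, 15.5, 16.6 and 33.8 with sorafenib, while both agents gave 13.8, 16.6 and 18.3. Sorafenib replicate 3 was as high as the controls, while the other sorafenib libraries lay at the level of those with both agents, which were all below the controls. Against control the difference was -0.997 ± 0.29 with both agents (adjusted p = 0.0428) and -0.56 ± 0.29 with sorafenib (adjusted p = 0.294), and without sorafenib replicate 3 the latter passed at -0.99. The call with both agents was lost, at -0.78 to -1.09, when any library other than control replicate 2 was left out, and also with no filter on low counts. A processed pseudogene, Hmgb1-ps5, overlaps Ctss on the same strand by 557 bases, so counts there are uncertain. Of 9 markers of dendritic cells and MHC class II, 4 fell with both agents, with summed levels of 200.0 to 289.8 CPM in the controls and 69.8 to 93.1 CPM with both agents.

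Ctsc (chromosome 7, 88278085 to 88310888, + strand, mm10) encodes cathepsin C, a dipeptidyl peptidase that activates the granule proteases of mast cells, neutrophils and cytotoxic lymphocytes. Its CPM was 49.8, 45.9 and 45.01 in the controls, 44.8, 44.04 and 41.6 with PLX3397, 26.5, 23.6 and 34.0 with sorafenib, while both agents gave 29.2, 30.9 and 27.0. All 6 libraries with sorafenib lay below all 6 without it. Ctsc fell by 0.74 ± 0.11 with sorafenib (adjusted p = 0.00803) and by 0.69 ± 0.11 with both agents against control (adjusted p = 0.00183). It also fell with both agents against PLX3397 (-0.58 ± 0.11, adjusted p = 0.0129). The difference between both agents and sorafenib was 0.05 ± 0.11 (adjusted p = 0.976). The sorafenib call was lost without sorafenib replicate 1 (-0.70), and that against PLX3397 without replicate 1 (-0.59) or replicate 3 (-0.53) of both agents. Of 5 mast cell markers tested, 2 fell with both agents, with a summed level of 8.17 to 9.61 CPM in the controls and 3.03 to 7.56 with both agents. Under sorafenib alone 0 of the 5 passed and 1 was at an unadjusted p under 0.05. Their median was -0.87 there, and their summed level was 4.21 to 9.04 CPM, overlapping the controls. With both agents edgeR called 0 of 9 lymphocyte and 0 of 8 monocyte and neutrophil markers, with 0 at an unadjusted p under 0.05. With sorafenib it also called 0 of each. There 1 of 9 and 1 of 8 were at an unadjusted p under 0.05 (11.1% and 12.5%, against 21.7% of all genes), with medians of -0.35 and -0.82. Lymphocyte markers summed to 3.15 to 7.38 CPM in the controls, 2.42 to 3.58 with sorafenib and 3.31 to 6.69 with both agents. Monocyte and neutrophil markers summed to 9.60 to 13.2, 7.99 to 12.5 and 12.01 to 14.6 CPM in the same groups. Their part in the Ctsc result was not tested.

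**Figure D2:**
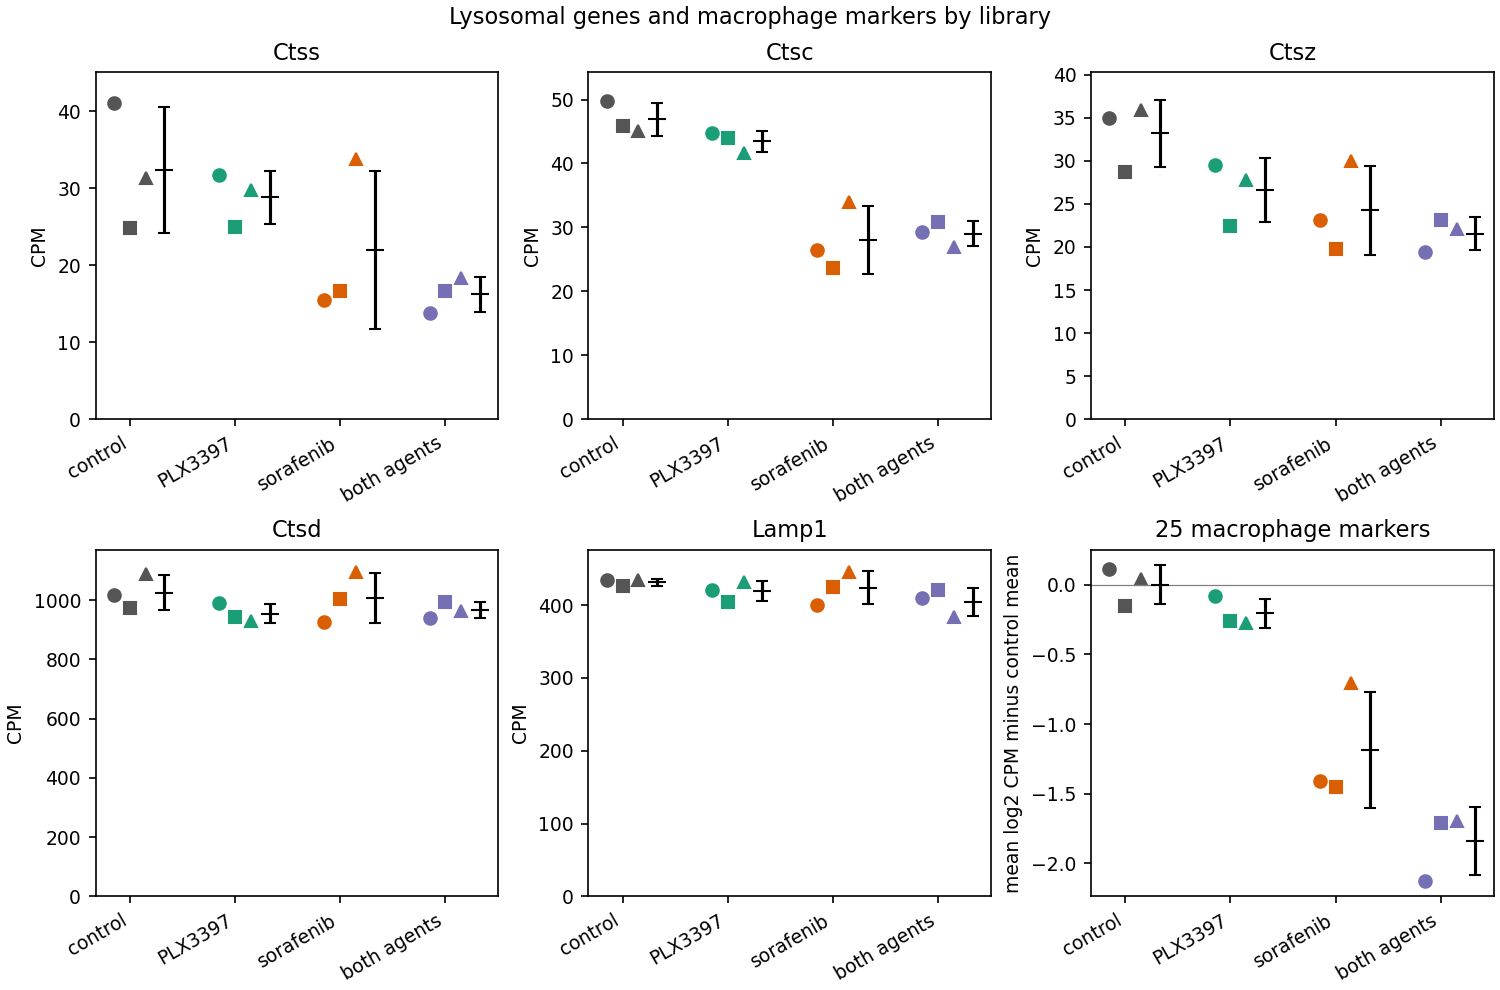
CPM of Ctss, Ctsc, Ctsz, Ctsd and Lamp1, and the mean log2 CPM of 25 macrophage markers relative to the controls, in each of the 12 libraries (circle, square and triangle for replicates 1, 2 and 3, bars for the mean ± SD). Ctss and the marker mean are higher in sorafenib replicate 3, with 33.8 CPM for Ctss, than in the other sorafenib libraries. Ctsd and Lamp1 are also highest there within the sorafenib group, at 1096 and 446 CPM, but differ less in proportion.

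The start regions of Ctss and Ctsc are shown because these genes had the lowest values among macrophage-enriched members with both agents and because both hold the site GAGGAAGT, a form of the sequence bound by PU.1, a factor of myeloid cells. The sequences are RefSeq's, build GRCm38.p6, from 250 bases before to 50 bases after the start, on the + strand of both genes, with the site, which lies there as its reverse complement ACTTCCTC, in capitals.
Ctss, chr3:95526536-95526835: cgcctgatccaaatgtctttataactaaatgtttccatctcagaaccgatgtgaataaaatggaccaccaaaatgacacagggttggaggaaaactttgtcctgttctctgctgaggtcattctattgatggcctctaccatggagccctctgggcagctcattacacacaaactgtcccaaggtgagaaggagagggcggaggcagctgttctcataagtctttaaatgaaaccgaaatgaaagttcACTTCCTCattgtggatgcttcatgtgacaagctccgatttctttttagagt
Ctsc, chr7:88277835-88278134: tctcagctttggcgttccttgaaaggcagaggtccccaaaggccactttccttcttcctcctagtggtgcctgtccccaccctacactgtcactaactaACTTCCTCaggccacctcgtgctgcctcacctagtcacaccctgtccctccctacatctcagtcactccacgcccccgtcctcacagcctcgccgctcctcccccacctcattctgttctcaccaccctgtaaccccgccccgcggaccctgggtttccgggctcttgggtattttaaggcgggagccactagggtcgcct
Searched on both strands, GAGGAAGT was in the promoters of 4 of the 38 members that had a promoter sequence (Ctss, Ctsc, Gla and Gusb; 10.5%) and of 3.69% of 27025 genes. Of these 4 genes, Gla had a value of -0.44 ± 0.24 with both agents and did not pass. Of 6 macrophage-enriched members with a promoter sequence, 2 held the site, and Ctsz, Lgmn, Grn and Lipa did not. Among the members that fell with both agents, Ctsz, Ctsk, Hexa, Npc2 and Atp6v1a had a promoter sequence without the site. A match is a description of letters and shows no binding.

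Ctsz, which encodes the carboxypeptidase cathepsin Z, had 34.9, 28.7 and 35.9 CPM in the controls, 29.5, 22.4 and 27.8 with PLX3397, 23.1, 19.8 and 29.9 with sorafenib, while both agents gave 19.4, 23.2 and 22.1. Only the last group lay wholly below the controls, and the value was -0.62 ± 0.15 (adjusted p = 0.0134). It did not pass without control replicate 3 (-0.56) or replicate 1 of both agents (-0.55). Without sorafenib replicate 3, Ctsz passed with sorafenib too, at -0.61. Ctsh, encoding the aminopeptidase cathepsin H, had 43.7, 46.7 and 44.4 CPM in the controls, 40.2, 38.7 and 29.5 with PLX3397, 36.8, 29.6 and 36.0 with sorafenib, while both agents gave 28.9, 29.7 and 37.4. The controls lay above every other library, and the value with both agents was -0.49 ± 0.13 (adjusted p = 0.0204). It was lost without control replicate 2 or 3 or without replicate 1 or 2 of both agents, at -0.42 to -0.50.

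Lgmn, Grn and Lipa, the remaining macrophage-enriched members, did not pass in any comparison. Lgmn encodes legumain, an asparaginyl endopeptidase that processes cathepsins, and had 92.1, 75.3 and 77.8 CPM in the controls, 75.9, 68.7 and 76.2 with PLX3397, 62.5, 61.6 and 84.7 with sorafenib, while both agents gave 74.0, 66.0 and 57.7 (-0.31 ± 0.13 against control, adjusted p = 0.108). Grn encodes progranulin, a secreted glycoprotein that reaches the lysosome, and had 101.2, 72.2 and 75.7 CPM in the controls, 74.9, 71.7 and 80.0 with PLX3397, 67.1, 65.2 and 89.4 with sorafenib, while both agents gave 69.7, 64.9 and 63.2 (-0.33 ± 0.13, adjusted p = 0.102). Lipa encodes lysosomal acid lipase, which frees cholesterol and fatty acids from lipoprotein lipids, and had 48.7, 31.9 and 31.1 CPM in the controls, 31.3, 32.8 and 35.3 with PLX3397, 27.0, 31.6 and 47.1 with sorafenib, while both agents gave 32.7, 30.03 and 31.1 (-0.25 ± 0.20, adjusted p = 0.431). In all 3 genes control replicate 1 was the highest library of its group, and sorafenib replicate 3 the highest of its own. The Lipa value with both agents was 0.0009 without control replicate 1.

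Ctsk encodes cathepsin K, the collagen-degrading protease of osteoclasts, which fibroblasts also make. It was low, with 5.40, 6.46 and 4.88 CPM in the controls, 4.10, 3.18 and 3.65 with PLX3397, 5.16, 2.43 and 3.66 with sorafenib, while both agents gave 3.10, 3.11 and 3.38. Sorafenib replicate 1 overlapped the controls and the other 8 treated libraries lay below them. The value with both agents was -0.80 ± 0.24 (adjusted p = 0.0337), and the call was lost, at -0.69 to -0.89, when any library other than control replicate 1 was left out. Ctsk lies 17423 bases from Ctss on chromosome 3. Of 8 fibroblast markers, 2 fell with both agents and 0 rose, and their summed level was 2430 to 2519 CPM in the controls and 1750 to 2478 CPM with both agents, whose part in the Ctsk value was not tested.

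The other broadly expressed cysteine proteases, Ctsb, Ctsl, Ctsf and Ctso, did not pass, whereas Ctsk, counted among the broadly expressed members, had a value below those of Ctsc, Ctsz and Ctsh. Ctsb had 532, 418 and 445 CPM in the controls, 442, 436 and 458 with PLX3397, 429.8, 454 and 512 with sorafenib, while both agents gave 455, 434 and 378, where the value was -0.14 ± 0.10 (adjusted p = 0.385). Ctsl, encoding cathepsin L, had 152, 137 and 137 CPM in the controls, 131, 127 and 130.3 with PLX3397, 129, 117 and 149 with sorafenib, while both agents gave 116, 102 and 148 (-0.22 ± 0.12, adjusted p = 0.238). Replicate 3 of both agents stood above its group for Ctsl, and without it Ctsl passed at -0.38. Ctsf and Ctso, encoding cathepsins F and O, had values of 0.03 ± 0.11 and -0.08 ± 0.12. Shares of the summed FPKM of the 10 cysteine proteases did not divide by macrophage enrichment. Ctss held 12.7, 9.38 and 11.1 % of the sum in the controls, 11.7, 9.96 and 11.2 % with PLX3397, 6.55, 7.25 and 11.5 % with sorafenib, while both agents gave 5.90, 7.22 and 8.10 %. Ctsc held 3.61, 4.05 and 3.72 % in the controls and 2.93, 3.14 and 2.79 % with both agents, while Ctsb held 37.0, 35.5 and 35.3 % and 43.7, 42.4 and 37.6 %. Among the macrophage-enriched genes, Ctsz held 10.2, 10.2 and 11.97 % in the controls and 7.84, 9.51 and 9.22 % with both agents, without overlap. Lgmn held 16.7, 16.6 and 16.1 % and 18.5, 16.8 and 14.9 %, and Ctsh 4.08, 5.32 and 4.74 % and 3.73, 3.89 and 4.99 %, both overlapping. The broadly expressed Ctsk held 1.50, 2.19 and 1.55 % and 1.19, 1.21 and 1.34 %, without overlap.

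**Figure D3:**
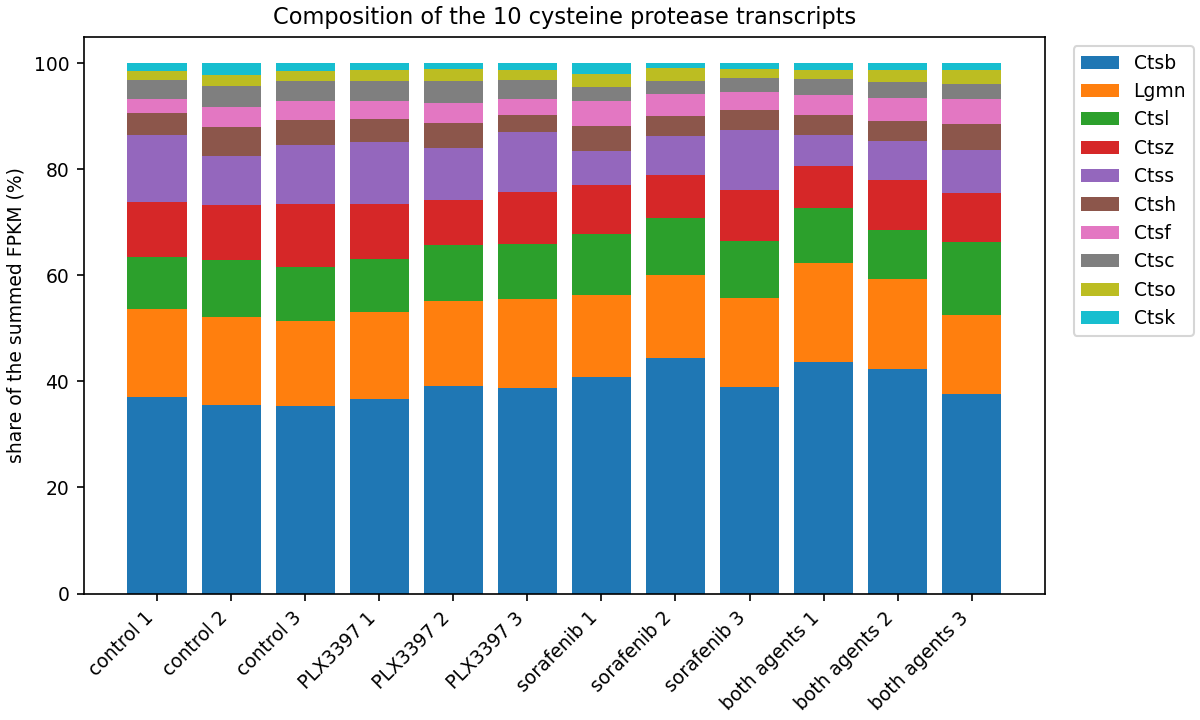
Share of each of the 10 cysteine protease transcripts in their summed FPKM (%), stacked, for each of the 12 libraries. The Ctss share is 12.7, 9.38 and 11.1 % in the controls and 5.90, 7.22 and 8.10 % with both agents, and Ctsb holds the largest share in every library.

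Among the other proteases, Ctsd had 1017, 972 and 1088 CPM in the controls, 990.0, 943 and 929.9 with PLX3397, 927, 1003 and 1096 with sorafenib, while both agents gave 941, 994 and 964, and the groups overlapped (-0.09 ± 0.08 with both agents, adjusted p = 0.506). Ctsa, whose product is a carboxypeptidase that stabilises neuraminidase and beta-galactosidase, had a value of -0.16 ± 0.07, and Tpp1, encoding tripeptidyl peptidase 1, one of 0.11 ± 0.08. None of these 3 passed in any comparison made.

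Of the 7 glycosidase genes, Hexa and Gusb fell with both agents (28.6%, against 8.14% of all genes) and 0 rose (against 7.97%). Hexa, encoding the alpha subunit of beta-hexosaminidase, had 62.5, 57.1 and 67.6 CPM in the controls, 57.6, 48.6 and 44.9 with PLX3397, 42.5, 40.9 and 53.3 with sorafenib, while both agents gave 39.6, 46.1 and 48.2. Every library with sorafenib lay below the controls. The value was -0.48 ± 0.12 with both agents (adjusted p = 0.0162) and -0.45 ± 0.12 with sorafenib (adjusted p = 0.0571), and the latter passed without sorafenib replicate 3 (-0.56) and, among others, with DESeq2 (-0.44) and on the FPKM scale (-0.57). Hexa did not pass with both agents without control replicate 3 (-0.42) or replicate 1 of both agents (-0.40).

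Gusb, encoding beta-glucuronidase, had 29.6, 25.4 and 22.9 CPM in the controls, 28.1, 22.3 and 25.2 with PLX3397, 17.9, 18.5 and 21.6 with sorafenib, while both agents gave 16.8, 19.7 and 19.2. The sorafenib libraries and those with both agents all lay below the controls and the PLX3397 libraries. The value was -0.48 ± 0.12 with both agents against control (adjusted p = 0.0171) and -0.43 ± 0.12 with sorafenib (adjusted p = 0.0715). The call was lost without control replicate 1 (-0.37) or replicate 1 of both agents (-0.42). The other 5 glycosidase genes ranged from -0.44 for Gla to 0.20 for Naglu, which encodes alpha-N-acetylglucosaminidase, with both agents.

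Among the 8 genes for lipid hydrolases and their cofactors, 1 fell with both agents, Npc2 (12.5%, against 8.14% of all genes). Its product hands cholesterol to the membrane protein NPC1. Npc2 had 60.8, 60.8 and 65.2 CPM in the controls, 58.3, 54.7 and 51.7 with PLX3397, 53.9, 51.1 and 55.6 with sorafenib, while both agents gave 48.4, 55.1 and 51.7, and all 9 treated libraries lay below the controls. The difference was small (-0.27 ± 0.08 with both agents, adjusted p = 0.0316) and was lost without control replicate 2 or 3, without replicate 1 or 3 of both agents, with the replicate block (-0.27) and in a fit of only these 2 groups, at -0.22 to -0.29. The partner gene Npc1 had 0.27 ± 0.20 (adjusted p = 0.393), and Psap 0.08 ± 0.09. Asah1 (acid ceramidase), Gm2a (the GM2 activator), Ppt1 (a thioesterase) and Smpd1 (acid sphingomyelinase) had values between -0.28 and 0.20.

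Of the 7 genes of the lysosomal membrane and progranulin, 2 rose with both agents, Lamp2 and Scarb2 (28.6%, against 7.97% of all genes). Lamp2 encodes a membrane glycoprotein needed for autophagosomes to fuse with lysosomes, and its loss causes a cardiomyopathy in humans. Lamp2 had 169.7, 166 and 155 CPM in the controls, 159, 183 and 182 with PLX3397, 196, 185 and 196 with sorafenib, while both agents gave 204, 191 and 233. Every library with sorafenib lay above every library without it, and the value was 0.35 ± 0.09 with both agents (adjusted p = 0.0157) and 0.23 ± 0.09 with sorafenib (adjusted p = 0.144). The call was lost without control replicate 3 (0.32) or replicate 3 of both agents (0.27) and on the FPKM scale (0.20).

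Scarb2 encodes LIMP-2, which carries glucocerebrosidase to the lysosome, and had 142, 134 and 127 CPM in the controls, 138, 156 and 156 with PLX3397, 159, 155 and 171 with sorafenib, while both agents gave 167, 171 and 177. Both groups with sorafenib lay above all controls. The value was 0.35 ± 0.08 with both agents (adjusted p = 0.00944), and 0.21 without a call on the FPKM scale. Lamp1, the paralogue of Lamp2, had 434, 426 and 434 CPM in the controls, 421, 404 and 431 with PLX3397, 400.3, 425 and 446 with sorafenib, while both agents gave 409.9, 420.4 and 383 (-0.09 ± 0.07, adjusted p = 0.411), and passed only on the FPKM scale, at -0.23. Laptm4a, Laptm4b and Mcoln1, the last encoding a calcium channel of the lysosome, had values between -0.06 and 0.01.

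Of the 3 transcription factors, 1 rose with both agents against control, Mitf (33.3%, against 7.97% of all genes). Mitf (chromosome 6, 97807052 to 98018707, + strand, mm10) has several promoters and acts in melanocytes, osteoclasts and mast cells, and cardiomyocytes express it as well. Its CPM was 38.7, 38.7 and 32.3 in the controls, 33.2, 40.9 and 39.5 with PLX3397, 46.4, 45.01 and 44.2 with sorafenib, while both agents gave 51.3, 47.5 and 53.4. All libraries with sorafenib lay above all libraries without it. The value was 0.47 ± 0.10 with both agents against control (adjusted p = 0.00621), 0.42 ± 0.10 against PLX3397 (adjusted p = 0.0286) and 0.31 ± 0.10 with sorafenib (adjusted p = 0.0918). The call against control held under every alternative run, and that against PLX3397 was lost on the FPKM scale (0.29), with the replicate block (0.42), in a fit of these 2 groups alone (0.42) and without PLX3397 replicate 1 (0.35) or replicate 1 (0.41) or 3 (0.38) of both agents.

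Tfeb, the factor best known for inducing lysosomal genes, had 23.2, 21.2 and 25.5 CPM in the controls, 18.9, 20.4 and 20.9 with PLX3397, 18.8, 21.9 and 19.9 with sorafenib, while both agents gave 20.9, 22.0 and 24.6. The groups overlapped except that the PLX3397 libraries lay below the controls, and no comparison passed (-0.05 ± 0.10 with both agents, adjusted p = 0.784). Tfe3 had -0.39 ± 0.14 (adjusted p = 0.0735). These are transcript levels, and the factors are controlled largely by their move into the nucleus, which RNA does not show.

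Markers of cardiomyocytes rose in the same group as Mitf, Lamp2 and Scarb2. Within that group, replicate 3 had the lowest marker mean but the highest Mitf, Lamp2 and Scarb2. Of 9 such markers, 6 rose and 0 fell with both agents (against 7.97% and 8.14% of all genes). With sorafenib alone, where Mitf, Lamp2 and Scarb2 did not pass, 3 of the 9 rose (against 1.50%). The markers' mean log2 CPM relative to the controls was -0.0012, 0.15 and 0.15 with PLX3397, 0.26, 0.34 and 0.32 with sorafenib, while both agents gave 0.52, 0.44 and 0.28. Their summed level was 38039 to 38894 CPM in the controls and 45732 to 55894 CPM with both agents. The 4 atrial markers, of which 0 passed, had summed levels of 650.2 to 1390 and 235 to 380.5 CPM in those groups, with 2149 CPM in sorafenib replicate 1. The part of these markers in the rises of Mitf, Lamp2 and Scarb2 was not tested.

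**Figure D4:**
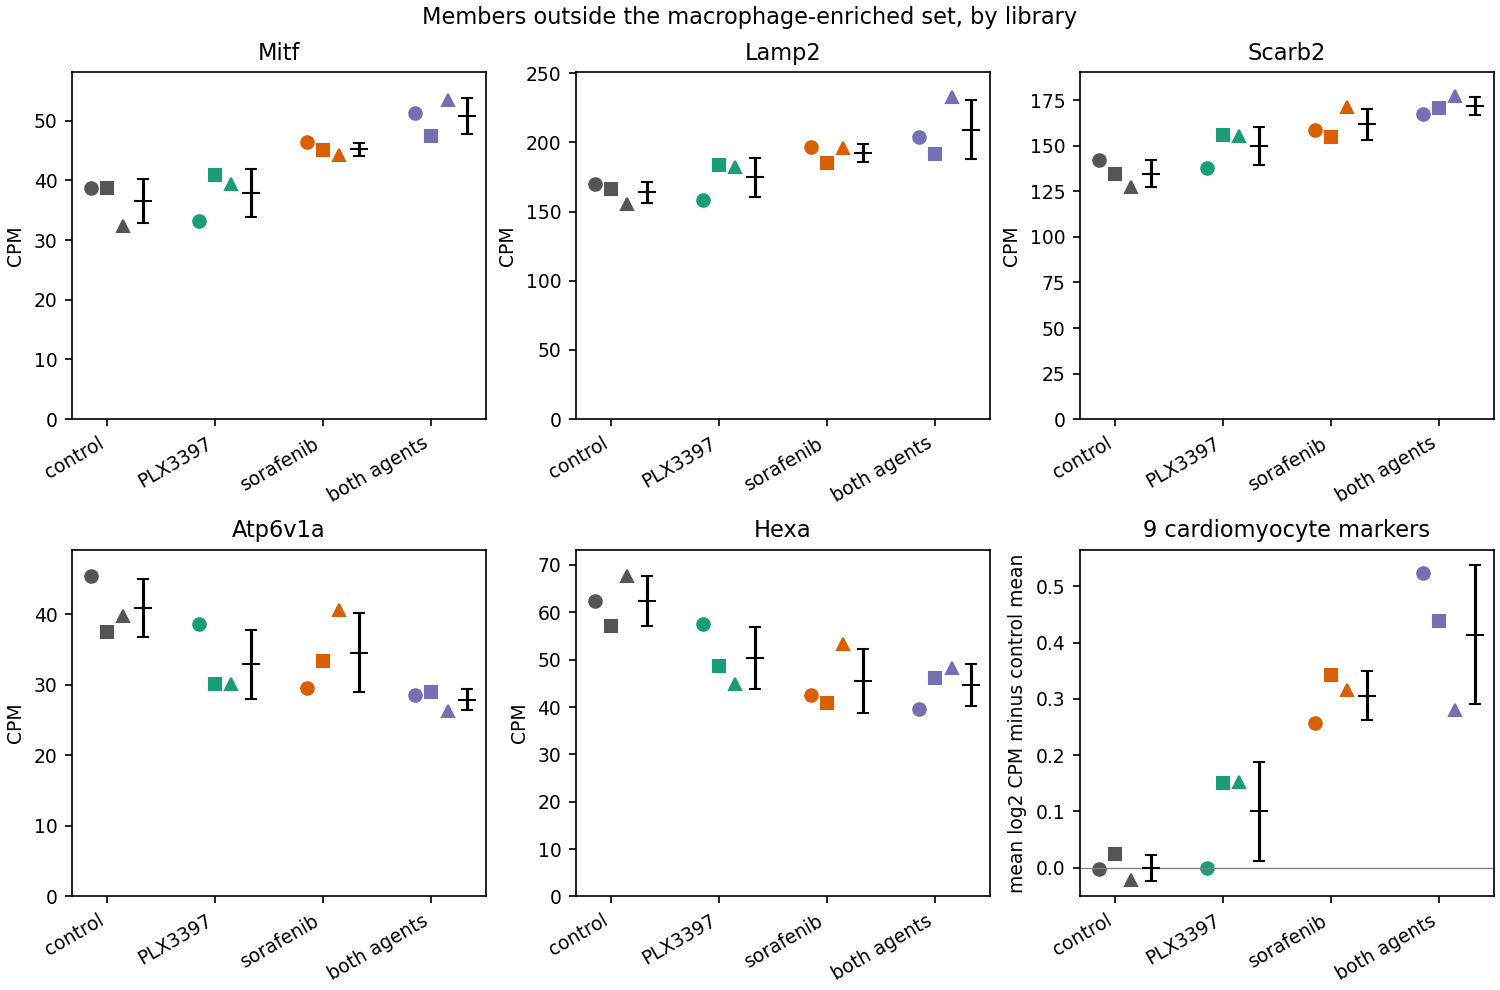
CPM of Mitf, Lamp2, Scarb2, Atp6v1a and Hexa, and the mean log2 CPM of 9 cardiomyocyte markers relative to the controls, in each of the 12 libraries (circle, square and triangle for replicates 1, 2 and 3, bars for the mean ± SD). Mitf and Lamp2 lie higher in all 6 libraries with sorafenib than in the 6 without it, while Hexa lies below the controls in them.

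Of the 6 proton pump members, 1 fell with both agents, Atp6v1a (16.7%, against 8.14% of all genes). This gene encodes the catalytic A subunit of the pump's cytosolic part. It had 45.4, 37.4 and 39.7 CPM in the controls, 38.6, 30.1 and 30.1 with PLX3397, 29.6, 33.4 and 40.6 with sorafenib, while both agents gave 28.5, 29.0 and 26.2. The libraries with both agents lay below all others, and the value against control was -0.55 ± 0.13 (adjusted p = 0.0111), which passed under every alternative run. Against sorafenib it was -0.31 ± 0.13 (adjusted p = 0.722). Atp6v0d1, of the membrane part, had -0.29 ± 0.11 (adjusted p = 0.0979). Atp6v1b2, Atp6v0c and the accessory genes Atp6ap1 and Atp6ap2 lay between -0.12 and -0.04.

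With 15 further subunit genes from a list of the pump, 20 were tested. With both agents 5 of 20 fell and 0 rose (against 8.14% of all genes that fell), and 17 were below 0 (median -0.16). Beside Atp6v1a these were Atp6v0e2 (-0.69), Atp6v0e (-0.55), Tcirg1 (-0.57) and Atp6v1f (-0.38), the last 2 chosen after their values were seen. Tcirg1 encodes the a3 subunit, which is abundant in osteoclasts and macrophages. With sorafenib edgeR called 0 of 20 (against 2.65% of all genes), with 18 below 0 (90.0%, against 51.8%), 6 of 20 at an unadjusted p under 0.05 (against 21.7%) and a median of -0.23. With PLX3397 it called 0 of 20 (against 0.00%), with 17 below 0 (85.0%, against 51.5%), 6 of 20 at an unadjusted p under 0.05 (against 12.3%) and a median of -0.18. The medians of the pump genes were thus below 0 in all 3 groups set against the same controls, and not lowest with both agents.

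The E-box CACGTG, the core of the element bound by TFEB, TFE3 and MITF, was in the promoters of 12 of 38 members (31.6%) and of 8.09% of 27025 genes. The longer form TCACGTGA, which holds the core and reads the same on both strands, was in 6 of 38 (15.8%) and in 1.12% of all. The 6 were Ctsa, Ctsd, Gla, Mcoln1, Atp6v0d1 and Atp6v1a. The stretches around the longer form in Ctsa (+ strand) and Atp6v1a (- strand) are shown, in RefSeq's GRCm38.p6 with the form in capitals, because these genes share it and 1 of them passed with both agents.
Ctsa, chr2:164833748-164833795: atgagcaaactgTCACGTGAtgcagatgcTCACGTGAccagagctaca
Atp6v1a, chr16:44139373-44139403: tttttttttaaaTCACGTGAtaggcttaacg
Ctsa holds it in 2 places and had -0.16 ± 0.07, and Atp6v1a holds it in 1 place and had -0.55 ± 0.13. Gla also holds it in 2 places, and Ctsd, Mcoln1 and Atp6v0d1 hold it in 1 place each, all without a call. Of the 6 genes, 1 passed with both agents. The promoters of Mitf, Lamp2 and Scarb2 held none of the 3 sequences searched.

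The macrophage-enriched members were then set against the broadly expressed ones. With both agents 4 of 7 macrophage-enriched members fell (median -0.49), against 5 of 37 that fell and 3 that rose among the others (median -0.09). These are 57.1% lower for the 7, and 13.5% lower and 8.11% higher for the 37, against 8.14% lower and 7.97% higher over all genes. The calls among the 37 thus lay nearer the background than those among the 7. Of the 37, 67.6% were below 0 (against 52.0% of all genes). Every library with both agents lay below every control in 29.7% of them (against 19.0%) and above in 3 (against 16.6%). For the 7, 85.7% lay wholly below the controls. The share of 57.1% is not stable, since the calls of Ctss, Ctsz and Ctsh were each lost when certain single libraries were left out. Under sorafenib alone 1 of the 7 and 0 of the 37 passed (14.3% and 0.00%, against 2.65% of all genes). Under PLX3397 alone 0 passed in either set (against 0.00%). The mean log2 CPM of the 7 genes relative to the controls was -0.12, -0.26 and -0.19 with PLX3397, -0.54, -0.60 and -0.04 with sorafenib, while both agents gave -0.54, -0.51 and -0.51. That of the 37 genes was -0.06, -0.10 and -0.11 with PLX3397, -0.09, -0.11 and 0.03 with sorafenib, while both agents gave -0.09, -0.10 and -0.09. Sorafenib replicate 3 was at the control level in both sets. The difference between the sets was not tested, since the genes were chosen with results of these data known.

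Macrophage markers had lower medians than the macrophage-enriched members. Of 25 markers, 22 fell with both agents (median -1.82) and 14 with sorafenib (median -1.13), with 0 that rose. Their summed level was 661 to 857 CPM in the controls, 621 to 714 with PLX3397, 333 to 586 with sorafenib, while both agents gave 238 to 329, and Aif1 was at 0 in 1 library, replicate 1 of both agents. Csf1r was at -1.90 and Laptm5, a lysosomal membrane gene of blood cells, at -1.27, both lower than Ctss at -0.997. With both agents the markers of endothelial cells (0 higher and 3 lower of 8 tested), mural cells (1 and 2 of 7), erythroid cells (1 and 0 of 5) and adipocytes (0 and 0 of 5) had medians of -0.24, -0.23, 0.68 and -0.59. The part of these marker lists in the values of Ctss, Ctsc, Ctsz, Ctsh and the other members was not tested.

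**Figure D5:**
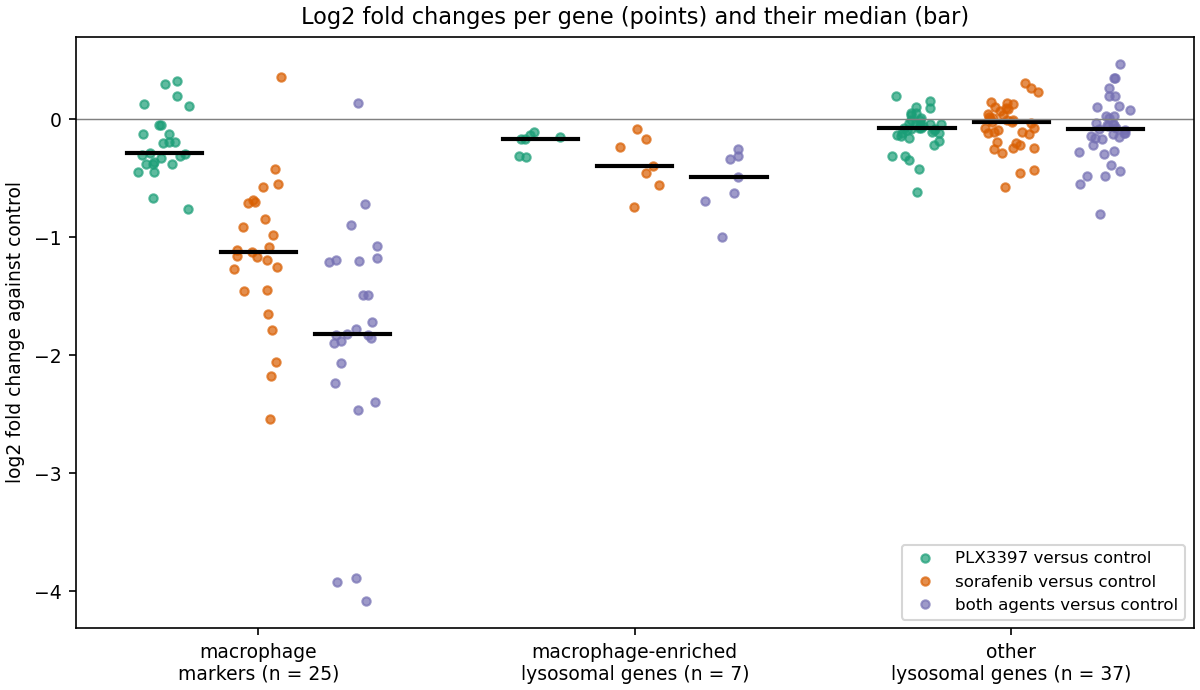
Log2 fold change against control of each gene (points) with the median (bar), for 25 macrophage markers, the 7 macrophage-enriched and the 37 other lysosomal genes, with PLX3397, sorafenib or both agents. With both agents the medians are -1.82, -0.49 and -0.09.

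With PLX3397 alone edgeR called 0 of 44 members against control, and 0.00% of all genes. DESeq2 and limma on FPKM also called 0 members. At an unadjusted p under 0.05 there were 8 members (18.2%, against 12.3% of all genes), the smallest being that of Atp6v0d1 (-0.35 ± 0.11, adjusted p = 0.361). Of the 44, 36 had a value below 0 (81.8%, against 51.5% of all genes), with a median of -0.09. Every PLX3397 library lay below every control in 8 members (18.2%, against 7.31% of all genes) and above in 1 (against 7.73%). These values share the control libraries with the other comparisons, and control replicate 1 was the highest of its group over all members.

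Adding PLX3397 to sorafenib gave 0 calls of 44 by edgeR, DESeq2 or limma on FPKM, as for 0.00% of all genes by edgeR. At an unadjusted p under 0.05 there was 1 member, Atp6v1a, against 6.43% of all genes. Ctss was at -0.44 ± 0.29 and at 0.02 without sorafenib replicate 3. With both agents against PLX3397, 2 of 44 passed, Ctsc lower and Mitf higher, 4.55% against 3.23% of all genes (2.23% lower and 1.01% higher). Ctss was at -0.83 ± 0.29 there (adjusted p = 0.184) and passed in a fit of these 2 groups alone, at -0.83. Whether the sorafenib difference itself differed with PLX3397 was tested as an interaction. edgeR called 0 of 44 members and 0.00% of all genes, and DESeq2 and limma on FPKM called 0 members. 1 member, Tfeb (0.37 ± 0.14), was at an unadjusted p under 0.05, against 5.82% of all genes. The interaction was 0.16 ± 0.16 for Ctsc and -0.27 ± 0.41 for Ctss.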

How the data were processed

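Per the labels' protocols, mRNA was purified with oligo(dT) from total heart RNA, and libraries were made with dUTP, which marks the strand. The submitters' processing notes name the build mm10 and the tools DESeq2 and edgeR; for the aligner, the counter and its strand setting, nothing is named in those notes. The deposited table holds, per gene and library, estimated counts in whole numbers and FPKM computed by the authors. Low counts pile up at 4 (12143 values, against 5303 at 3 and 3364 at 5), so counts divided by 4 were an alternative.

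Counts as deposited were tested in R 4.3.3 with edgeR 4.0.16 (TMM scaling, genes kept by filterByExpr with a minimum count of 10 and a total of 15, robust quasi-likelihood fit, 1 mean per group over all 12 libraries). The 6 contrasts were tested, and p-values were adjusted by Benjamini-Hochberg over 18897 genes. The SE is the log2 fold change divided by the square root of F. DESeq2 1.42.0, limma 3.58.1 on log2(FPKM + 0.5) or + 0.1, which understates changes of low genes, other scaling and filters, a replicate block and leaving out each library were alternatives. The FPKM were tested without TMM factors. Those factors were 1.02 to 1.09 in the controls, 1.01 to 1.05 with PLX3397, 0.94 to 0.99 with sorafenib and 0.93 to 0.98 with both agents. Log2 fold changes of groups with sorafenib against groups without it therefore tend to lie lower on the FPKM scale. The fits were also run on simulated counts in which genes were changed only in the groups with sorafenib. No result given here rests on that run, and it does not check the scaling.

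The members and lists were chosen with earlier results of these data known. Values in every library are given for the 7 macrophage-enriched members, Ctsb, Ctsd, Ctsl, Ctsk, Lamp1, Lamp2, Tfeb, Mitf and Atp6v1a and each member called; of other lysosomal genes, up to 6 called per comparison were named by smallest p. With no strand stated, reads of members that overlap a gene in the annotation (Ctsb, Ctsl, Ctss, Ctsz, Ctsa, Hexa, Glb1, Ppt1, Npc1, Lamp1, Laptm4b, Scarb2 and Atp6v1b2) may be shared. For Ctsl, Ctss and Glb1 the overlapping gene is on the same strand, so this holds under any strand setting. The RefSeq promoters used cover 38 members, without Atp6v1b2, Laptm4b, Ctsh, Npc1, Asah1 and Ctsb.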

Additional observations from a re-analysis of the deposited data

How the results depend on the processing

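The number of members called against control with both agents was 12 and stayed between 11 and 16 in the alternatives that kept all libraries (8.37 to 23.3% of all genes called), and between 5 and 10 with 1 library left out (6.48 to 16.8% of all genes). With sorafenib against control the 1 call became 7 with DESeq2, 3 with limma on FPKM, 3 with counts divided by 4, 2 with no filter, 2 with the stricter filter, and 0 to 4 with 1 library left out (0 without sorafenib replicate 1, 4 without sorafenib replicate 3). With both agents against PLX3397 the 2 calls became 4 with DESeq2, 1 with limma on FPKM, and 0 to 2 with 1 library left out (0 without replicate 1 or 3 of both agents). With the replicate number as a block, 1 member passed with sorafenib, 1 with both agents against PLX3397 and 11 with both agents against control. Over all genes tested, libraries with the same number did not deviate together from their group means (correlations of -0.10 to 0.06). The labels do not say what the number stands for, so a shared batch or litter cannot be told from this. PLX3397 against control, both agents against sorafenib and the interaction gave 0 calls under each alternative. The cause of these shifts was not tested. Of the alternative values for the 20 genes named with their libraries, 1726 kept their side of the threshold and either their direction or a shift within the replicate spread, 40 lost a call, 23 gained one and 11 uncalled ones moved, among them sorafenib against control without control replicate 1, 0.17 for Lipa and 0.01 for Grn. None that was called turned direction. With 3 libraries a group small differences in low genes such as Ctsk are poorly resolved.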

Other observations

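Other genes of the lysosome gave both directions. Of 92 tested from lists of further hydrolases, membrane proteins, sorting receptors, regulators, pump subunits and inhibitors, 8 rose and 10 fell with both agents against control (19.6%, against 16.1% of all genes). Rragd, a Rag GTPase that tells mTORC1 of amino acids at the lysosome, had 90.9, 85.5 and 85.2 CPM in the controls, 101.2, 101.1 and 103 with PLX3397, 92.7, 107 and 94.6 with sorafenib, while both agents gave 126, 122 and 112, a value of 0.46 ± 0.08 against control (adjusted p = 0.00196). The libraries with both agents lay above all others. Fnip1, whose product works with folliculin on the Rag GTPases, had 49.2, 46.1 and 37.4 CPM in the controls and 79.4, 66.0 and 57.7 with both agents, and rose with both agents (0.61 ± 0.12, adjusted p = 0.00505) and with sorafenib (0.54 ± 0.12, adjusted p = 0.0330). Igf2r, the cation-independent mannose 6-phosphate receptor that delivers new hydrolases, rose as well (0.47 ± 0.10 and 0.44 ± 0.10, adjusted p = 0.00835 and 0.0380). Laptm5 fell with both agents (-1.27 ± 0.19, adjusted p = 0.00111) and with sorafenib (-0.98 ± 0.18, adjusted p = 0.0189), and its 9.67, 11.4 and 17.8 CPM with sorafenib were highest in replicate 3, the library with the most macrophage marker RNA of its group. In the KEGG lysosome term of the deposited annotation, 6 of 81 tested genes outside the 44 rose and 6 fell with both agents (7.41% each), a share near the background. The rises of Rragd, Fnip1 and Igf2r came in groups where cardiomyocyte markers were higher, and the part of those markers was not tested.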
